A study of Mus musculus with 20 samples.

Results

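Troponin is the calcium switch of striated muscle. The complex sits on the actin thin filament and is built of troponin C, which binds calcium, troponin I, which holds back the contact of actin with myosin, and troponin T, which ties the complex to tropomyosin. Each subunit comes from separate genes that are used by fibre type: Tnnt2 and Tnni3 in adult heart, Tnnt1 and Tnni1 in slow skeletal fibres, Tnnt3, Tnni2 and Tnnc2 in fast skeletal fibres, and Tnnc1 in both heart and slow fibres. These genes therefore serve as labels of muscle tissue, and in the mouse heart muscle cells also clothe the larger veins of the lung. All 8 genes were on the array, through 10 of its 12488 probe sets (groups of short oligonucleotides that read 1 transcript). The members were taken by gene symbol alone and not by any measured value. Tnnt1 and Tnnc2 had 2 probe sets each and the other 6 genes 1 each.

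The series concerns sleep apnea and glucose metabolism in mice and holds 20 arrays. On 12 of them, called the tissue panel here, brain, heart, lung and skeletal muscle of 20-week-old C57BL-6J mice were measured, with 1 array per tissue for a control without hypoxia or fragmentation, for sleep fragmentation (repeated interruption of sleep) and for hypoxia. The labels give no oxygen level or duration for the panel. The other 8 arrays held subcutaneous adipose tissue, 2 arrays in each of 4 groups named Con or Glucose and Hyp or NonHyp, numbered 1 and 2 here. The Hyp mice went from 20.9% to 5% oxygen and back in swings of 30 sec for 16 hours a day over 5 days. The NonHyp mice were held at 20.9% oxygen for the same hours and days. Array titles also carry a code that the labels do not explain, s2 on all panel arrays and s2 or s4 on the adipose arrays. The adipose labels name 12-week-old C57BL-6J and C57BL-6J-Lep mice together, the latter carrying a mutation of the leptin gene, without saying which array came from which strain, and do not explain Con and Glucose. The labels do not say that arrays came from separate animals, nor whether animals were pooled, so an error here is the spread between arrays, and the small number of arrays limits its precision.

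The trimmed mean intensity lay between 792.9 and 799.2 on 19 arrays and at 2671 on the brain hypoxia array, whose deposited values are therefore on a larger scale. On the adipose arrays 17.4% to 21.1% of the probe sets read 0 or less, on the panel 0%, so the 2 sets were fitted separately and no difference between them was tested. The labelled tissues carried their own defining genes: the summed level of 6 neuron and glia genes was 30949 to 106353 on the brain arrays and at most 2285 on the others of the panel, 12 cardiomyocyte genes summed to 61500 to 77617 in heart and 13 fast fibre genes to 88297 to 91967 in muscle. On the lung arrays Sftpb, a surfactant protein, lay at 3763 to 6577 and Ager, a marker of alveolar type I cells, at 6083 to 8909, while the Sftpc probe set lay at 5.40 to 718.2 there and up to 1506 in brain. Scgb1a1, a secretory protein of airway club cells, lay at 8142 on the lung fragmentation array and at 9345 on the brain control array. The 6 white adipocyte genes summed to 42425 to 142447 on the adipose arrays.

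Promoter sequences were read for the genes that RefSeq's table of mouse promoters (build GRCm38.p6) holds, 6 of the 8, as the 250 bases before the annotated start of transcription. One is shown for each fibre type the genes are known for: heart (Tnnt2), heart and slow fibre (Tnnc1), slow skeletal fibre (Tnnt1) and fast skeletal fibre (Tnnc2). They lie at chr1:135836084-135836333 on the plus strand for Tnnt2, chr14:31208062-31208311 on the plus strand for Tnnc1, chr7:4515976-4516225 on the minus strand for Tnnt1 and chr2:164779735-164779984 on the minus strand for Tnnc2. Capitals mark matches to the E-box CANNTG, which muscle regulatory factors of the MyoD family bind, to the M-CAT element CATTCCT, first described in a cardiac troponin T promoter, and to TATAA.
Tnnt2: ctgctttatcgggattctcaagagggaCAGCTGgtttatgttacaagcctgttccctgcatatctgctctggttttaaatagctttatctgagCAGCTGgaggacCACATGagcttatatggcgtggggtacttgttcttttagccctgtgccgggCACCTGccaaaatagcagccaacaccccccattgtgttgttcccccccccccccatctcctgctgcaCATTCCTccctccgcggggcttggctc
Tnnc1: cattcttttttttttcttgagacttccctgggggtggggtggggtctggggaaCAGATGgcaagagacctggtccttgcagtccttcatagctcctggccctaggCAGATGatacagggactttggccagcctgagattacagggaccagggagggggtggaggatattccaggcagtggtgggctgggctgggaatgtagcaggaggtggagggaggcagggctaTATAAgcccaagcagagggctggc
Tnnt1: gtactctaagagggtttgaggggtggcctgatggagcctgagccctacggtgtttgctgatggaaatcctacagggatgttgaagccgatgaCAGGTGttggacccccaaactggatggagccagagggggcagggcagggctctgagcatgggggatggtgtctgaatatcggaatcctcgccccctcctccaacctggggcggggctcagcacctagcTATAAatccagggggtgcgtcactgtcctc
Tnnc2: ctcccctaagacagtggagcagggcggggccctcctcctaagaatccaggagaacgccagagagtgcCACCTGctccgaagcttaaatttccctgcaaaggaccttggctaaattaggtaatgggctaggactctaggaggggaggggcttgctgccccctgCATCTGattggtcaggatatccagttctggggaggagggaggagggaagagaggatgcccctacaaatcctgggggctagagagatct
E-boxes were found in all 8 windows of the 6 genes (Tnnt2 and Tnni1 have 2 annotated starts each), with 4 in the Tnnt2 window shown, against 66.2% of all 32851 promoter windows of the same length. The 2 Tnni1 windows overlap, and both E-boxes of the second also lie in the first, so these windows are not independent. The M-CAT element, searched on both strands, was found in that Tnnt2 window, 27 bases before the start, and in 4.51% of all windows. TATAA, searched on the gene's own strand, began 30 bases before the start of Tnnt1 and 24 bases before that of Tnnc1 and occurred in 16% of all windows. The longer MEF2 and CArG consensus motifs had no match in the 8 windows, against 2.92% and 1.47% of all windows, and no motif match overlapped another. The arrays do not test these sequences. The genes also lie in pairs: Tnnt1 and Tnni3 are next to each other on chromosome 7, Tnni2 and Tnnt3 on chromosome 7 have 1 protein-coding gene (Lsp1) between them, and so do Tnni1 and Tnnt2 on chromosome 1 (Lad1).

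The heart expressed Tnnt2, Tnni3 and Tnnc1 above every other tissue of the panel. Tnnt2, the cardiac troponin T, read 14211 on the heart control array, 16643 under fragmentation and 11159 under hypoxia. In lung it read 1920, 1466 and 1971 in the same order, in muscle 156.5, 267.7 and 208.5, and in brain 155.7, 108.5 and 734.4, the last on the array with the larger scale. All heart arrays were above all lung arrays, and all lung arrays above all muscle and brain arrays. An offset of 97.7 was added to the panel values before log2, and the arrays were then quantile normalized, which puts them on 1 scale. Tnnt2 was higher in heart than in the mean of brain and lung by 4.47 ± 0.17 on this log2 scale (SE of the fit, here and below). That is a 22.1-fold difference (limma, Benjamini-Hochberg adjusted p = 1.005e-07). Against muscle the difference was 5.61 ± 0.19, or 48.7-fold (limma, adjusted p = 7.456e-08).

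Tnni3, the cardiac troponin I measured in blood as a sign of heart injury, read 7904, 9403 and 4210 on the control, fragmentation and hypoxia arrays of heart. Lung gave 1933, 1445 and 1464, muscle 249.8, 154.4 and 481.8, and brain 176.6, 114.8 and 244.4. Heart and lung did not overlap each other or the other tissues, while muscle and brain overlapped. The difference was 3.53 ± 0.31 against the mean of brain and lung (11.6-fold, limma, adjusted p = 1.049e-05) and 4.19 ± 0.36 against muscle (18.2-fold, limma, adjusted p = 3.002e-05). Tnnc1, the calcium sensor of heart and slow fibres, read 6749, 6470 and 3299 in heart, 1720, 1048 and 1451 in lung, 1230, 387.9 and 541 in muscle, and 29.5, 98.7 and 84.1 in brain. Lung and muscle overlapped for Tnnc1, and heart lay above and brain below both. Tnnc1 was 11.9-fold higher in heart than in the mean of brain and lung (3.57 ± 0.31, limma, adjusted p = 8.1e-06). Against muscle it was 7.11-fold higher (2.83 ± 0.35, limma, adjusted p = 0.0003074). Over lung alone, the next tissue, the heart mean was higher by 3.01 for Tnnt2, 2.02 for Tnni3 and 1.87 for Tnnc1 on the normalized log2 scale. The hypoxia array was the lowest of the 3 heart arrays for each of these 3 genes. Of the 12 cardiomyocyte genes it was the lowest for 6 (Myh6, the adult cardiac myosin heavy chain, read 4213 against 12074 and 16017) and the highest for 3 (Ryr2, the calcium release channel, read 9578 against 7056 and 5871).

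Fast skeletal isoforms marked the muscle arrays. Tnnt3, the fast troponin T, read 20431, 15653 and 18649 on the control, fragmentation and hypoxia arrays of muscle. It read 207.7, 43.7 and 236.9 in heart, 32.8, 88.7 and 1284 in lung, and 580.4, 68.9 and 1745 in brain. Muscle did not overlap any other tissue, and the other tissues overlapped each other, with 1 lung and 2 brain arrays well above the rest. Tnnt3 was 41.1-fold higher in muscle than in brain and lung (5.36 ± 0.54; limma, adjusted p = 2.177e-05) and 63.1-fold lower in heart than in muscle (-5.98 ± 0.62; limma, adjusted p = 0.0001083). Only 1 of the 7453 probe sets tested was lower than Tnnt3 in heart relative to muscle. Tnni2, the fast troponin I, read 6892, 4435 and 5877 in muscle and between 21.0 and 261.2 on every other array of the panel. Its difference was 4.98 ± 0.35 for muscle against brain and lung (31.5-fold, limma, adjusted p = 2.232e-06) and -5.31 ± 0.41 for heart against muscle (39.8-fold, limma, adjusted p = 1.386e-05).

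The slow isoforms were also higher in muscle than elsewhere, by smaller amounts. Tnni1, the slow troponin I, which the heart uses before birth, read 3188, 1875 and 1754 in muscle, 1231, 748 and 380.4 in heart, 752.3, 568.7 and 566.8 in lung, and 1200, 1182 and 3424 in brain. On the normalized scale muscle was above all other tissues, brain and heart overlapped, and so did heart and lung. The fit gave 1.31 ± 0.20 for muscle against brain and lung (2.47-fold, limma, adjusted p = 0.0003379) and -1.50 ± 0.23 for heart against muscle (2.83-fold, limma, adjusted p = 0.001176). Tnnt1, the slow troponin T, has 2 probe sets. The first, whose suffix marks probes specific to 1 transcript and which is called the specific probe set here, read 1218, 1300 and 1081 in muscle, 997, 702.7 and 757.4 in heart, 507.5, 356.5 and 371.7 in lung, and 511.4, 458.5 and 1771 in brain. The second, whose suffix marks probes shared between transcripts and which is called the shared probe set, read 2977, 1246 and 995.5 in muscle, 127.7, 327.8 and 261.1 in heart, 94.9, 93.5 and 84.5 in lung, and 441, 75.8 and 956.6 in brain. Both placed Tnnt1 higher in muscle than in brain and lung, by 1.32 ± 0.13 (limma, adjusted p = 2.207e-05) and 2.76 ± 0.38 (limma, adjusted p = 0.0001608), and lower in heart than in muscle, by -0.56 ± 0.15 (limma, adjusted p = 0.02301) and -2.40 ± 0.44 (limma, adjusted p = 0.003044). They parted on heart against brain and lung, where the specific probe set was higher (0.75 ± 0.13; limma, adjusted p = 0.001045) and the shared probe set did not pass (0.36 ± 0.38; limma, adjusted p = 0.4464). The heart-against-muscle call of the specific probe set was lost without any 1 of the heart fragmentation, heart hypoxia, muscle fragmentation or muscle hypoxia arrays (-0.49, -0.56, -0.45 and -0.60; adjusted p = 0.09167, 0.06468, 0.0827 and 0.05178), and under the deposited scaling (-0.51, adjusted p = 0.7878).

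Tnnc2, the fast troponin C, did not follow the other fast isoforms on the panel. Its brighter probe set, whose suffix marks probes shared within a gene family, read 519.6, 722 and 95.1 in muscle, 388.7, 904.7 and 588.5 in heart, 195.7, 267.3 and 1483 in lung, and 1229, 427.5 and 1840 in brain. All 4 tissues overlapped, and Tnnc2 passed no tissue test: 0.12 ± 0.63 for heart and -0.47 ± 0.63 for muscle against brain and lung, 0.59 ± 0.73 for heart against muscle (limma, adjusted p = 0.8847, 0.537 and 0.5932). The other probe set read between 10.03 and 80.4 on the panel, below the offset everywhere, and was not tested. Low readings on the muscle arrays were also seen for other abundant fibre genes: Acta1, skeletal actin, read 1126, 474.9 and 1272 in muscle against 4250 to 5363 in heart, and Atp2a1, the fast fibre calcium pump, 115.7, 927.1 and 513.8 through 1 probe set but 8930, 7147 and 3043 through another. What set these readings was not tested.

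Counted over the genes, with the probe set of the higher mean standing for Tnnt1 and Tnnc2, 4 of 8 troponin genes were higher in heart than in brain and lung (Tnnt2, Tnni3, Tnnc1, Tnnt1) and 0 lower, where 25.3% of all probe sets tested were called higher and 25.6% lower. In muscle against brain and lung 4 were higher (Tnnt3, Tnni2, Tnnt1, Tnni1) and 1 lower (Tnnt2, -1.14 ± 0.17; limma, adjusted p = 0.00026), beside 29.7% and 31% of all probe sets. On the normalized log2 scale Tnnt2 averaged 8.39 in muscle, 8.07 in brain and 10.99 in lung. Muscle was thus below lung only, and its arrays overlapped those of brain. Tnnc1 did not pass (0.74 ± 0.31, limma, adjusted p = 0.05777), with muscle at 9.69 between brain at 7.26 and lung at 10.65. In heart against muscle 3 were higher (Tnnt2, Tnni3, Tnnc1) and 4 lower (Tnnt3, Tnni2, Tnni1, Tnnt1), beside 13.9% and 11%. The median difference of the 8 genes was 0.44, 1.02 and 0.01 in these 3 comparisons, and that of all probe sets tested 0.01, 0.02 and 0.01. With the deposited scaling in place of quantile normalization the troponin counts were 3, 4 and 6, while the share of calls in the higher direction over all probe sets went from about even to 24.6% for heart and 22.0% for muscle against brain and lung.

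**Figure D1:**
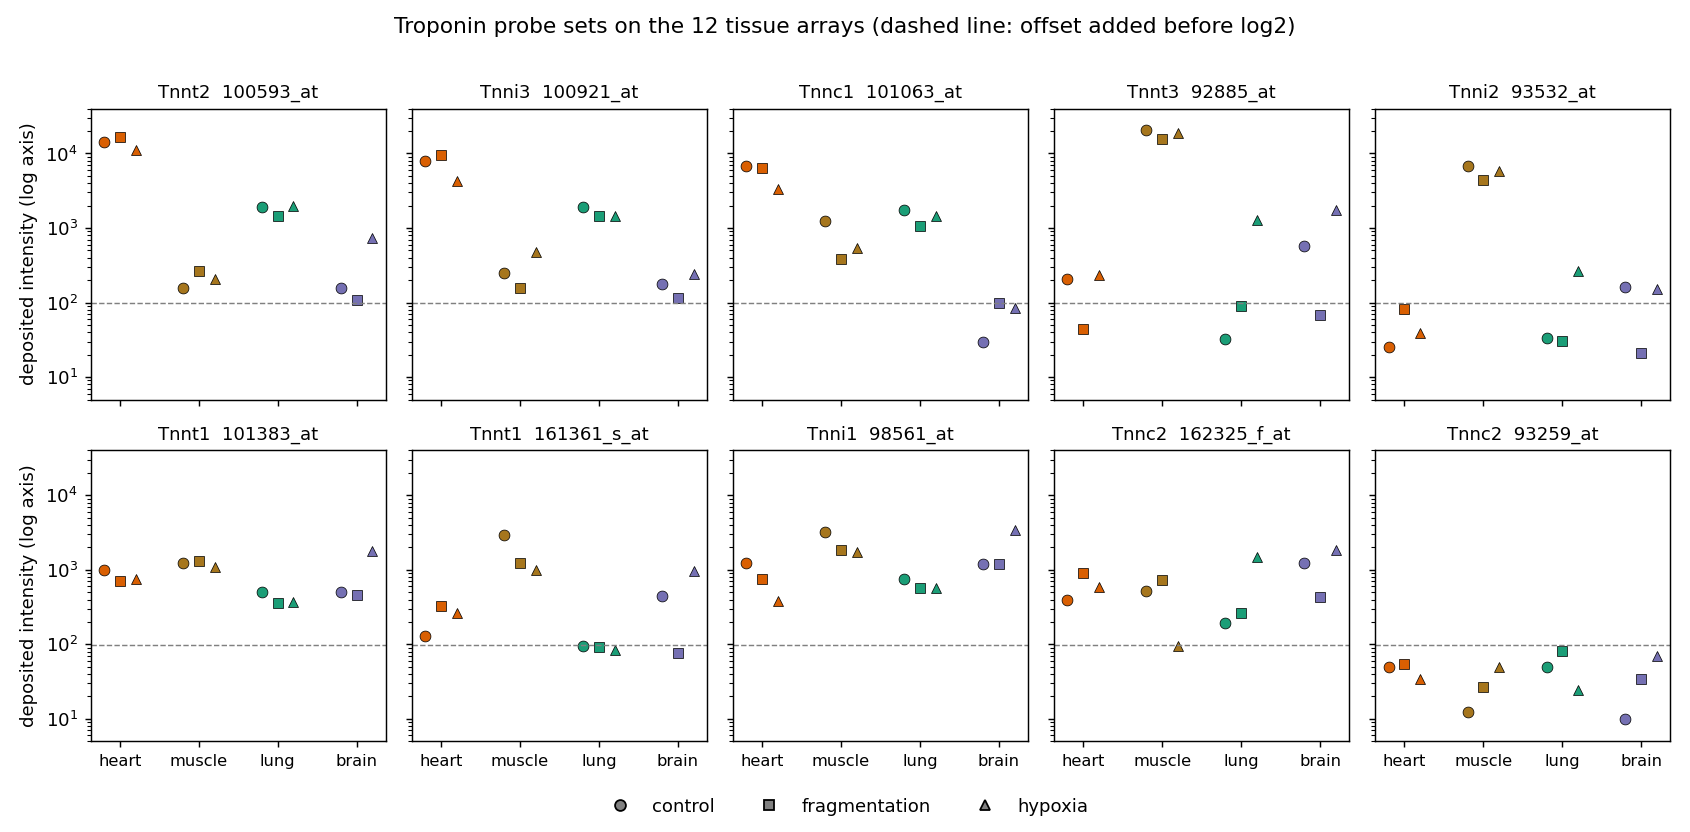
Deposited intensity (log axis) of each troponin probe set on the 12 panel arrays, 1 point per array, coloured by tissue and shaped by condition; the dashed line is the offset of 97.7. Tnnt2, Tnni3 and Tnnc1 are highest in heart with lung next, Tnnt3 and Tnni2 are highest in muscle with 1 lung and 2 brain arrays raised for Tnnt3, and the Tnnc2 probe sets do not separate the tissues.

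**Figure D2:**
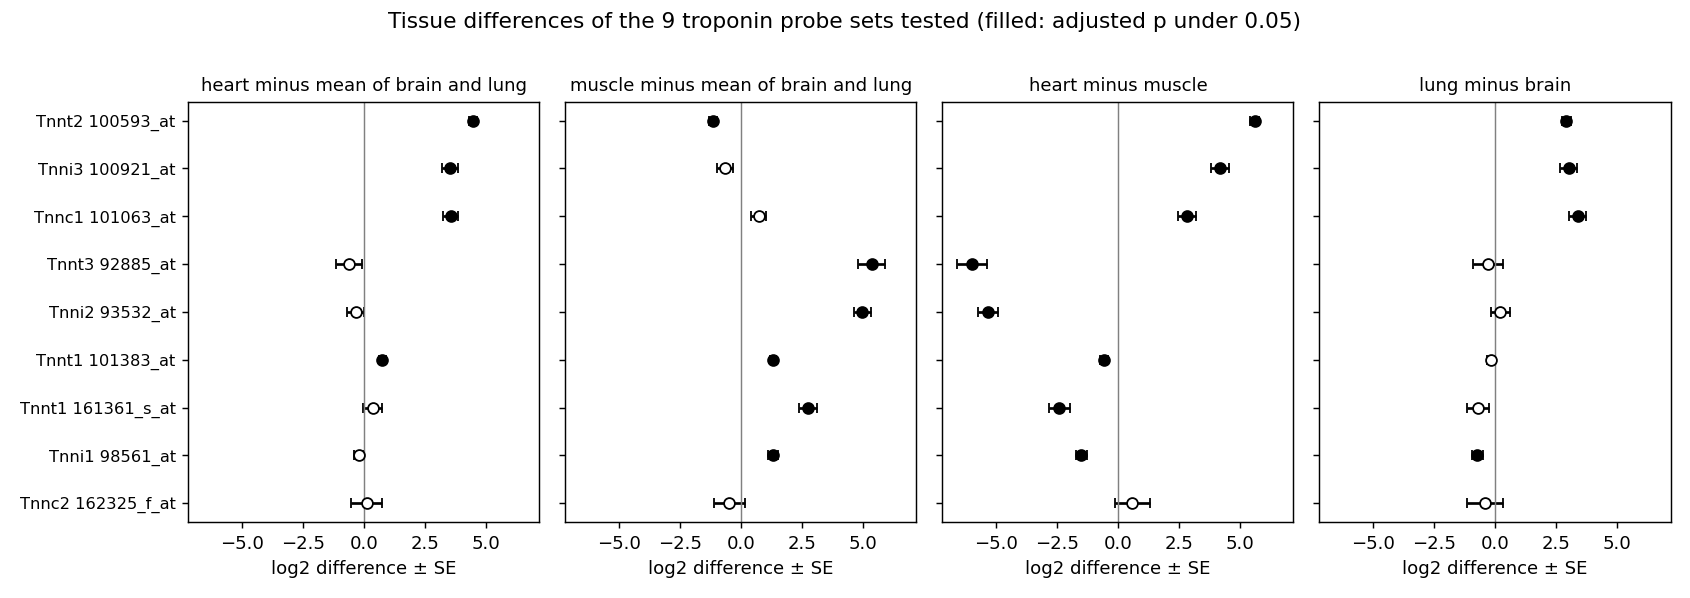
Log2 differences between tissues with their standard errors for the 9 troponin probe sets tested; filled points have an adjusted p under 0.05. In heart minus muscle the cardiac genes lie at 2.83 to 5.61 and the fast genes Tnnt3 and Tnni2 at -5.98 and -5.31.

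Of 11 genes listed for the other proteins of the thin filament, 6 were measured, and their counts are read against the same shares of all probe sets as those of the troponins. In heart against brain and lung 0 were higher and 2 lower, Tpm1 (-1.25 ± 0.15; limma, adjusted p = 7.761e-05) and Tpm3 (-0.47 ± 0.14; limma, adjusted p = 0.01595), which encode tropomyosins, the strands that troponin T holds. In muscle 3 were higher and 2 lower, led by Tpm2, the tropomyosin beta chain, at 4.35 ± 0.46 (20.4-fold, limma, adjusted p = 2.928e-05). In heart against muscle 1 was higher and 2 lower, with Tpm2 at -5.07 ± 0.53 (33.7-fold, limma, adjusted p = 0.0001083) beside the fast troponins. A dimmer Tpm2 probe set did not show this excess in muscle. It read 176.6, 136.8 and 398.2 in muscle, 418.3, 473 and 214.5 in heart, and 176.2, 245.7 and 666.4 in brain. Actc1, cardiac actin, read 13883, 15900 and 11781 in heart through 1 probe set, with 4745, 2942 and 5150 in lung and 15463, 2096 and 4427 in muscle. The probe set that stood for Actc1 in the fit gave 0.11 ± 0.50 for heart against brain and lung (limma, adjusted p = 0.871), so the 2 Actc1 probe sets disagreed.

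Each lung array carried the cardiac troponins. As a percent of the heart mean, lung lay at 12.7 ± 1.99 for Tnnt2, 22.5 ± 3.85 for Tnni3 and 25.5 ± 6.15 for Tnnc1 (SD, n = 3), and the brain control and fragmentation arrays averaged 0.94, 2.03 and 1.16. By array, the lung control, fragmentation and hypoxia samples held 13.7%, 10.5% and 14.1% of the heart level of Tnnt2, 26.9%, 20.2% and 20.4% of that of Tnni3, and 31.2%, 19.0% and 26.4% of that of Tnnc1. The fragmentation array was the lowest of the 3 for all of them. Lung was higher than brain for Tnnt2 (2.93 ± 0.19; limma, adjusted p = 9.127e-07), Tnni3 (3.02 ± 0.36; limma, adjusted p = 5.918e-05) and Tnnc1 (3.39 ± 0.35; limma, adjusted p = 2.06e-05), that is by 7.60-, 8.10- and 10.5-fold. Tnni1 was the 1 troponin lower in lung than in brain (-0.71 ± 0.23; limma, adjusted p = 0.0253), a call lost without either lung control (-0.61), lung fragmentation (-0.66), brain fragmentation (-0.63) or brain hypoxia array (-0.62). So 3 of 8 were higher and 1 lower, beside 24.4% and 26.9% of all probe sets tested.

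Other genes of heart muscle moved with the cardiac troponins in lung, by unequal amounts. Of 11 cardiomyocyte genes tested, 7 were higher in lung than in brain and 2 lower, with a median of 0.86 beside -0.08 for all probe sets. The atrial myosin light chains Myl7 and Myl4 and the atrial peptide gene Nppa lay in lung at 54.5%, 41.9% and 40.9% of the heart mean, Myh6 at 20.4%, Mybpc3 at 14.4% and Ankrd1 at 7.96%. Beside 14.1% in brain, Nppa varied by lung array, at 73.55% on control, 26.1% on fragmentation and 23.1% on hypoxia. Nppb and Ryr2 lay at 2.77% and 2.79%, no higher than in brain (3.35% and 16.7%). The summed level of the 12 listed cardiomyocyte genes was 13305 to 20217 in lung, 4869 and 5118 on the brain fragmentation and control arrays, 4185 to 4630 in muscle and 61500 to 77617 in heart. Genes of smooth muscle, which uses no troponin, were higher in lung than in brain in 5 of 5 tested. Whether the cardiac troponin reading came from heart muscle inside the lung or from tissue taken with it was not tested, and in whole tissue fewer cells of a type and less RNA per cell cannot be told apart.

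Fast skeletal troponins stood out on the lung hypoxia and brain control arrays, and Tnnt3 also on the brain hypoxia array. Each array was first divided by its own trimmed mean and then set against the muscle mean. Tnnt3 lay at 7.04% of the muscle level on the lung hypoxia array and at 0.18% and 0.49% on the lung control and fragmentation arrays. Tnni2 lay at 4.55% there, beside 0.58% and 0.53%. The lung hypoxia array thus stood apart from the other lung arrays for both genes. In brain, Tnnt3 lay at 3.18% on the control array, 2.87% under hypoxia and 0.38% under fragmentation, and Tnni2 at 2.84%, 0.81% and 0.37%. The heart arrays held 0.24% to 1.298% of the muscle level of Tnnt3 and 0.44% to 1.41% of that of Tnni2.

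The fast fibre list was also high on the lung hypoxia and brain control arrays. Of its 13 genes, 11 were highest of the 3 lung arrays on the hypoxia array. The list summed to 15163 there against 6931 and 7929, and Myh1, a fast myosin heavy chain, lay at 14.6% of the muscle mean against 0.03% and 0.12%. The Myh1 readings of the lung control, lung fragmentation and brain fragmentation arrays (4.56, 16.5 and 15.7) lay below the offset. In brain, 9 of the 13 were highest on the control array, and Myh1 lay there at 4.29% against 0.12% and 0.80%, whereas the brain hypoxia array was highest for 3 and lowest for 4. Other lists leaned the same way: the lung hypoxia array was highest for 5 of 6 white adipocyte genes, 5 of 6 thin filament partners and 4 of 6 smooth muscle genes, and the brain control array for 4 of 5 lung epithelium and 5 of 7 brown adipocyte genes. Their part in the troponin readings was not tested. Tnnc2 was also highest on the lung hypoxia array (1483 against 195.7 and 267.3). The cardiac troponins did not set that array apart: Tnnt2 read 1971 against 1920 and 1466, and Tnni3 1464 against 1933 and 1445. With the brain control, brain hypoxia and lung hypoxia arrays left out, 4 of 8 troponins were still called in heart and 5 in muscle against brain and lung, and 3 in lung against brain, Tnni1 being the loss (-1.02, adjusted p = 0.06633). Without those arrays Tnnt3 lay at 6.34 and Tnni2 at 5.48 for muscle against brain and lung.

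**Figure D3:**
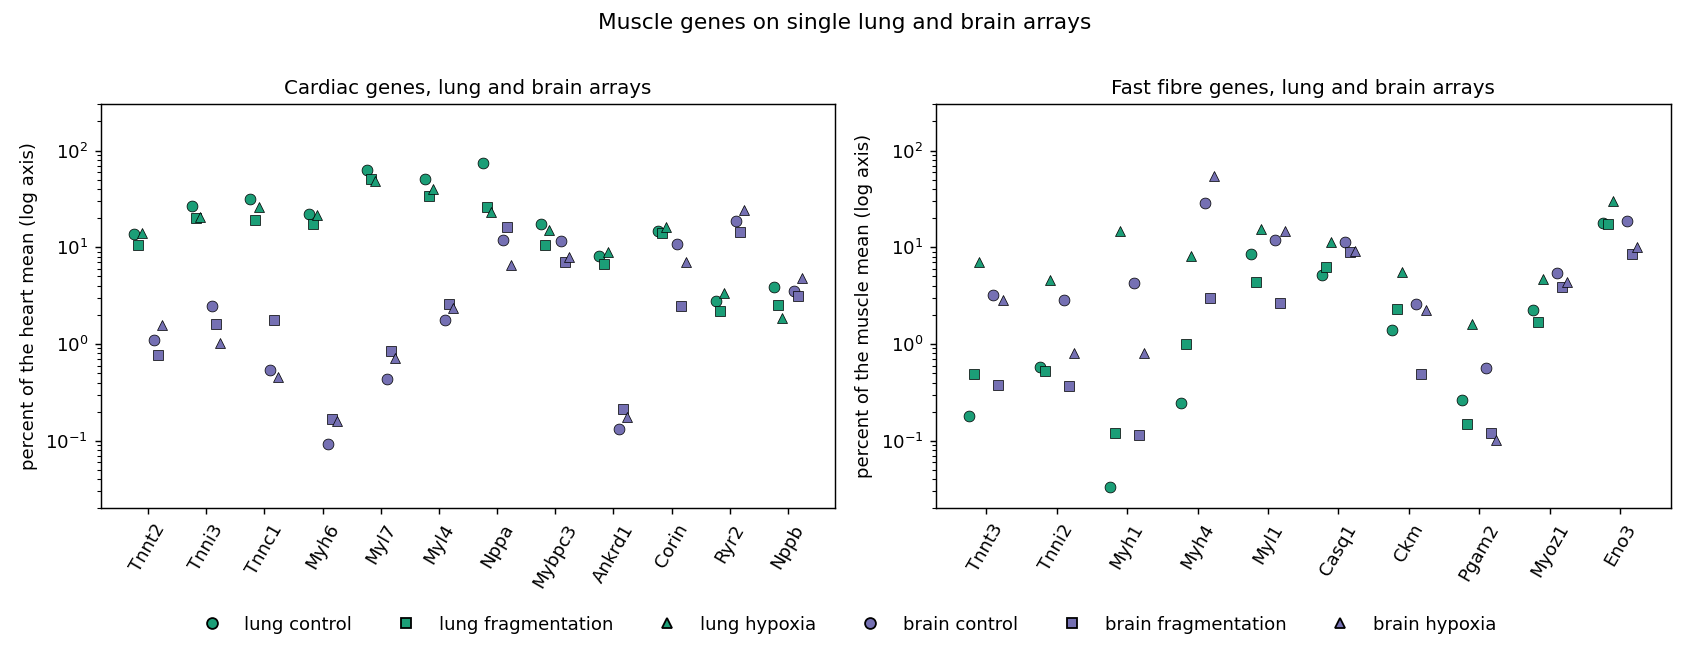
Level of selected cardiac genes as a percent of the heart mean (left) and of selected fast fibre genes as a percent of the muscle mean (right) on each lung and brain array, after division by the array's trimmed mean (log axes, 1 point per array). Not drawn are Myh2, Mylpf, Pvalb, Atp2a1 and Actn3 of the fast fibre list and Sln, Gata4 and Nkx2-5 of the cardiomyocyte list. On the brain control array Pvalb lay at 1322% and Atp2a1 at 431.9% of the muscle mean, and Sln at 125.8% of the heart mean. The other genes not drawn lay at 75.5% or less there. For Pvalb and Atp2a1 these are the probe sets that stood for the gene in the list, and another probe set of each disagreed. The other Pvalb probe set read 1194 on brain control against 17838, 12649 and 16545 in muscle. That of Atp2a1 read 567.7 on brain control against 8930, 7147 and 3043 in muscle. The lung arrays lie together at 10.5% to 31.2% for the 3 cardiac troponins, whereas for Tnnt3 and Tnni2 the lung hypoxia array stands above the other lung arrays at 7.04% and 4.55%.

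No troponin passed the test for either exposure across the tissues. In the fit with tissue and condition as terms, 0 of 8 were called for fragmentation against control and 0 for hypoxia against control, as was 0% of all probe sets tested in each; at an unadjusted p under 0.05, 335 and 374 of the 7453 probe sets passed. The smallest p among the troponins was that of Tnni1 under hypoxia (-0.70 ± 0.20; limma, unadjusted p = 0.005833, adjusted p = 0.906), lower than control in all 4 tissues, by 0.28 in brain, 1.49 in heart, 0.31 in lung and 0.71 in muscle on the log2 scale. Tnnt3 had the widest differences, -0.71 ± 0.54 for fragmentation and 0.82 ± 0.54 for hypoxia (limma, adjusted p = 0.9669 and 0.9151). Hypoxia minus control was 3.39 for Tnnt3 in lung and fragmentation minus control -2.07 in brain and -1.17 in heart, beside -0.09 and -0.11 in muscle itself. The lung hypoxia and brain control arrays are those on which the fast fibre list was also high. Within 1 tissue there is 1 array per condition, so these differences have no test. In heart, hypoxia minus control was -0.22 for Tnnt2, -0.97 for Tnni3 and -1.10 for Tnnc1. In muscle, Tnnc1 and the shared probe set of Tnnt1 were lower than control under both exposures, by -1.56 and -1.11 for fragmentation and by -1.08 and -1.38 for hypoxia. The muscle control array was also the highest of the 3 for 4 of the 7 genes of the slow fibre and ventricle list (Myl2, the slow regulatory light chain, read 4812 against 3019 and 2039), and the muscle fragmentation array held the most Adipoq, an adipocyte hormone (6364 against 410.8 and 2926). Their part in the muscle differences was not tested.

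On the adipose arrays the fast isoforms were abundant, and the cardiac isoforms Tnnt2 and Tnni3 lay at or near the floor. Tnnt3 read 9648 and 6910 on the Con Hyp arrays, 13957 and 33011 on Con NonHyp, 8937 and 23792 on Glucose Hyp, and 469.7 and 19207 on Glucose NonHyp. Tnni2 read 743.7 and 532.3, 1137 and 5679, 642.2 and 2225, and 29.0 and 2255 in the same order. Tnnc2, which did not mark muscle on the panel, read 3949 and 4091, 7815 and 14027, 5310 and 7149, and 1427 and 10904 through its brighter probe set. All 3 fast isoforms were highest on Con NonHyp 2 and lowest on Glucose NonHyp 1. Tnnt2 lay between 5.99 and 161.6 and Tnni3 between -151.2 and 142.3, at or under the floor of 97.7, below which adipose values were set to it, on 6 of the 8 arrays each. The 12 cardiomyocyte genes summed to 1886 to 4400 on these arrays, with 5 to 7 of them at or under the floor. Myh6 and Myl7 were at most 143.6 and 105.4, while Nppa read 338.5 to 1075 and Myl4, through its brighter probe set, 506.4 to 1586.

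The fast fibre list followed the fast troponins array by array: 11 of its 13 genes were highest on Con NonHyp 2 and 12 lowest on Glucose NonHyp 1, with sums of 249952 and 9657 and of 67584 to 161826 on the other 6 arrays. Glucose NonHyp 1 was also the lowest array for 5 of 6 white adipocyte genes, whose sum of 42425 there was the lowest of the 8. It was the lowest too for 5 of 7 genes of the slow fibre and ventricle list. Of these 7 genes 6 lay at or under the floor there, so the count rests in part on the order of readings under it. The part of these lists in the troponin readings was not tested. Over the 8 arrays, which share tissue and platform and fall in pairs of the same treatment, the log2 levels of Tnnt3, Tnni2 and Tnnc2 had Pearson's r of 0.95 (Tnnt3 and Tnni2), 0.94 (Tnnt3 and Tnnc2) and 0.97 (Tnni2 and Tnnc2). Between any fast isoform and Tnnt1, Tnni1 or Tnnc1, r lay between -0.08 and 0.24.

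The slow isoforms shared a second, looser pattern in adipose tissue, high on the Con arrays numbered 1. Pearson's r of their log2 levels over the 8 arrays was 0.91 (Tnnt1 and Tnnc1), 0.78 (Tnni1 and Tnnc1) and 0.55 (Tnnt1 and Tnni1). Tnnt1 read 5163 and 827.3 on Con Hyp 1 and 2, 7321 and 949.5 on Con NonHyp 1 and 2, and -140.9, -71.7, -177.6 and 107.9 on the Glucose arrays through the shared probe set. Tnnc1 read 1957 and 310, 2247 and 79.5, and -214.2, -51.9, -108.6 and 100.3. Tnni1 read 2268 and -68.1, 2714 and -107, and then 285.2, 439.2, 253.7 and 374.9. All 4 Con arrays were above all Glucose arrays for this probe set of Tnnt1 but not for the specific one, and for Tnni1 the Con arrays numbered 2 were below them. Of the 8 troponin genes, Tnnt1, Tnni1 and Tnnc1 had these 2 arrays as their highest, as did 5 of 7 genes of the slow fibre and ventricle list, 5 of 7 brown adipocyte genes and 0 of 13 fast fibre genes. Ucp1, the uncoupling protein that defines brown fat, read 10666 on Con Hyp 1 and 20246 on Con NonHyp 1 and at most 341.8 on the other adipose arrays, and the brown list summed to 84189 and 64252 there against 1058 to 10009 elsewhere. The part of brown fat or of the muscle beside it in the slow troponin readings was not tested.

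**Figure D4:**
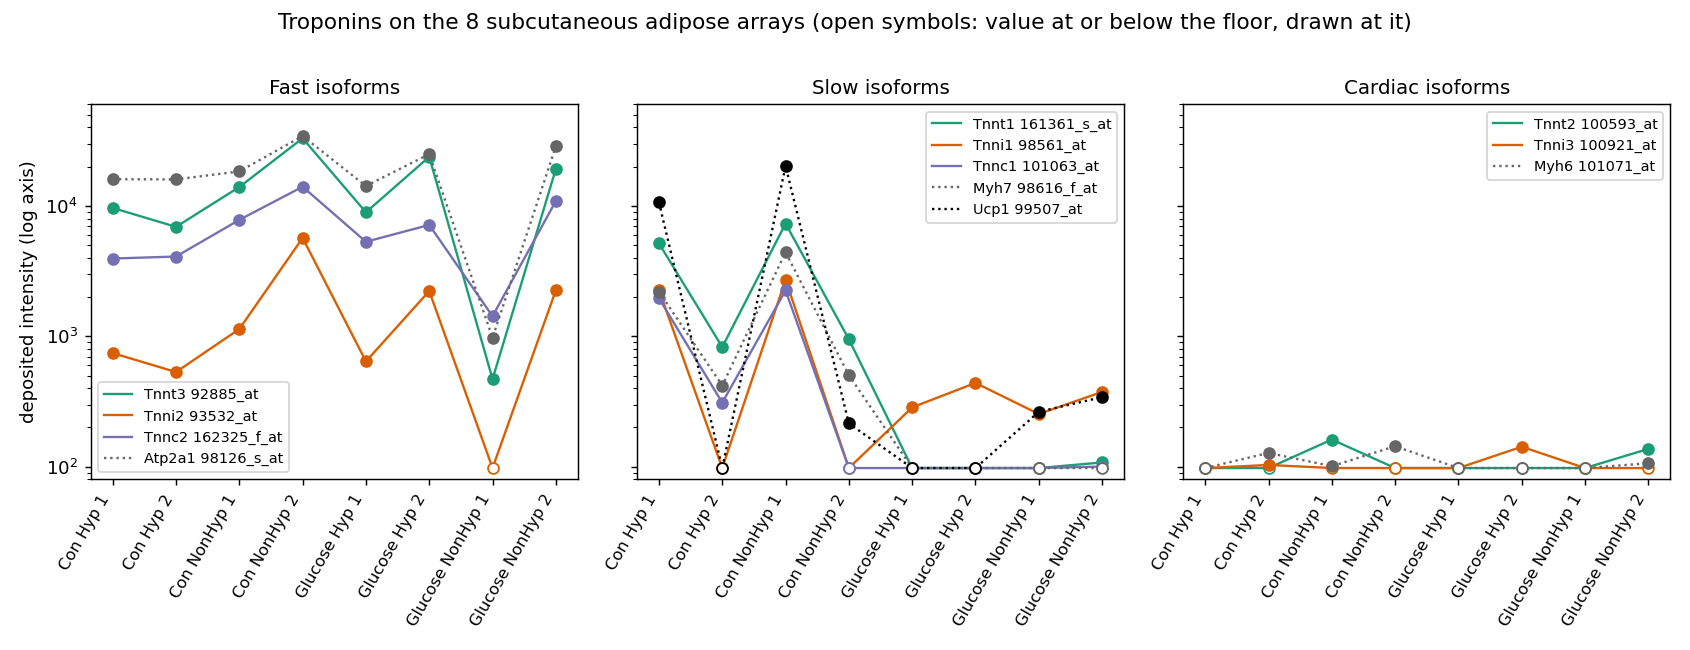
Deposited intensity (log axis) of troponin genes on each of the 8 adipose arrays, with a fast fibre gene (Atp2a1), a slow fibre gene (Myh7), a brown fat gene (Ucp1) and a cardiac gene (Myh6) dotted; lines join the values of a gene and carry no order, and open symbols are values at or below the floor, drawn at it. The fast isoforms peak on Con NonHyp 2 and dip on Glucose NonHyp 1, the slow isoforms stand high on Con Hyp 1 and Con NonHyp 1, and Tnnt2 and Tnni3 stay near the floor.

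In Glucose against Con, 6 of the 8 troponins were bright enough to test. Of these 0 were higher and 1 lower, beside 4.04% and 3.54% of all probe sets tested. Tnnt1 was lower in Glucose, at -4.54 ± 0.75 on the log2 scale through the shared probe set (23.3-fold, limma, adjusted p = 0.01304). On 3 of the 4 Glucose arrays it lay at the floor, so the size depends on where the floor is set. Over the alternatives the Tnnt1 difference ranged from -6.08 to -1.24, the latter through the specific probe set. That probe set, which read 1228, 391.2, 1556 and 317.4 on the Con arrays and 192.2, 655.8, 258.1 and 235 on the Glucose arrays, gave -1.24 ± 0.64 (limma, adjusted p = 0.2944) and did not pass. The Tnnt1 call was lost without Glucose Hyp 1 (adjusted p = 0.05189) or Glucose Hyp 2 (0.05008), and over all its alternatives the adjusted p reached 0.2944. Without both Con arrays numbered 1 it was -3.15 (adjusted p = 0.03008), and without Con Hyp 1, Con Hyp 2, Con NonHyp 1 or Con NonHyp 2 alone -3.88, -5.20, -3.81 and -5.28. Tnnc1 did not pass (-2.62 ± 0.98; limma, adjusted p = 0.1585) and did so without Con NonHyp 2 (-3.75, adjusted p = 0.03238). Tnnt3 (-1.0002 ± 1.06), Tnni2 (-0.76 ± 1.01), Tnnc2 (-0.40 ± 0.60) and Tnni1 (-0.58 ± 1.23) differed by about their standard error or less, with adjusted p of 0.6246, 0.7094, 0.7515 and 0.8256 (limma); Tnnt3 passed without Glucose NonHyp 2 (-2.34, adjusted p = 0.04065). All 6 had a negative difference, with a median of -0.88 beside 0.04 for all probe sets.

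Genes of other cell types passed the test in the same comparison. Of the genes tested, 4 of 4 B cell genes and 3 of 3 T cell genes were lower in Glucose, as were 1 of 6 slow fibre genes (Myh7, -3.61 ± 0.75; limma, adjusted p = 0.0302) and 1 of 4 brown adipocyte genes (Cidea, -5.65 ± 1.04; limma, adjusted p = 0.0195). In the other direction 1 of 5 smooth muscle genes (Acta2, 1.51 ± 0.31; limma, adjusted p = 0.02934) and 1 of 5 cardiomyocyte genes (Myl4, 1.15 ± 0.22; limma, adjusted p = 0.02352) were higher. Of the fast fibre genes 0 of 12 were called, of the thin filament partners 0 of 6 and of the white adipocyte genes 0 of 6. Their part in the Tnnt1 difference was not tested.

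No hypoxia difference of a troponin passed the test on the adipose arrays. Of the 6 tested, 0 were called for hypoxia against non-hypoxia on average, within Con, within Glucose, or for the difference between those effects, and 0% of all probe sets were called in each; 110, 218, 159 and 246 of the 7453 probe sets had an unadjusted p under 0.05. Tnnt3 was -1.39 ± 1.502 within Con and 2.28 ± 1.502 within Glucose, a difference of 3.67 ± 2.12 (limma, adjusted p = 0.9991), and Tnni2 -2.01 ± 1.43, 1.35 ± 1.43 and 3.36 ± 2.02 (limma, adjusted p = 0.9991). Without Glucose NonHyp 1 the effect within Glucose turned to -0.40 for Tnnt3 and -0.92 for Tnni2. Of the 12 fast fibre genes tested 0 were called in these comparisons; all 12 had a negative difference within Con and all 12 a positive one within Glucose, with medians of -1.33 and 1.20. The white adipocyte genes, also with 0 of 6 called, were positive in 6 of 6 within Con and negative in 6 of 6 for the difference between the effects.

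The genes most like each troponin over the 12 panel arrays were ranked by Pearson's r of the log2 levels, arrays of 4 tissues sharing the contrast between tissues. Tnnt2 was closest to Pkp2 (0.99) and Dsp (0.99), proteins of the cell junctions of heart muscle, and Tfpi (0.99). Tnni3 was closest to Ankrd1 (0.98), Myh6 (0.96) and Arfrp1 (0.96), and Tnnc1 to Lamb2 (0.98), Dusp2 (0.96) and Sem1 (0.96). The fast pair had neighbours of fast fibres: Casq1, the calcium store protein, Myh1 and Atp2a1 for Tnnt3 (0.97, 0.97 and 0.96), and Mylpf, Casq1 and Ryr1 for Tnni2 (0.99, 0.98 and 0.98). Tnnt1 was closest to Smyd1 (0.98), Cfl2 (0.97) and Ucp3 (0.97), Tnni1 to Hoxd8 (0.96), Med20 (0.95) and Upf2 (0.93), and Tnnc2 to Seh1l (0.72), Txnl1 (0.64) and Mms19 (0.63), the lowest values of the set.

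Over the 8 adipose arrays the closest genes were again of the same fibre type for the fast isoforms. Tnnt3 was closest to Cox6a2 (0.998), a respiratory subunit of muscle, Ckm (0.99), muscle creatine kinase, and Atp2a1 (0.99). Tnni2 was closest to Ak1, Mylpf and Adssl1 (0.99 each), and Tnnc2 to Myl1, Pvalb and Mylpf (0.98 each). Tnnt1 was closest to Myh7 (0.99), Ndufa6 (0.99) and Cidea (0.98), and Tnnc1 to Myl2 (0.996), Akap1 (0.996) and Agpat3 (0.98). Tnni1 was closest to genes of mitochondrial metabolism, Cycs (0.99), Etfdh (0.98) and Dlat (0.98). For the slow isoforms the 2 Con arrays numbered 1 were the highest of the 8, and how far r rested on them was not tested. Tnnt1 through its shared probe set also stood at 9.69 and 9.89 on the Con arrays numbered 2, against 6.61 to 6.75 on the Glucose arrays (log2).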

How the data were processed

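Total RNA of 20 samples was measured on a mouse oligonucleotide array, 1 array per sample. The deposited values are probe set intensities on a linear scale. How probes were summarised and scaled was not given in the sources used here. Symbols came from the platform annotation, which gave 1 symbol to 10833 of 12488 probe sets, several to 396 and none to 1193, and 66 were controls. The offset of 97.7 (the 20th percentile of positive values) was added to the panel values, and their log2 was then quantile normalized. Adipose values below the offset were set to it, a floor of 6.61 on the log2 scale. Panel probe sets whose highest tissue mean was under the 40th percentile were left out, as were adipose probe sets whose mean over arrays was. This left 7453 in each set. A panel probe set could thus be kept through the 1 tissue where it was high. Differences were fitted with limma 3.58.1 in R 4.3.3, by tissue and condition (6 residual degrees of freedom) or by adipose group (4), with Benjamini-Hochberg adjustment over all probe sets tested and a threshold of 0.05; the fits were tested on simulated data. All 8 troponin genes were named by rule, with the 3 genes most like each. Members and gene lists were chosen with earlier results of these data known. Promoters are from RefSeq (GRCm38.p6). Alternatives covered scaling, offset, filter, probe set choice, blocks and each array left out.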

Additional observations from a re-analysis of the deposited data

How the results depend on the processing

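The troponin counts between tissues stayed within 1.5 times the main count under every alternative run: 3 to 4 for heart and 4 to 6 for muscle against brain and lung, and 6 to 7 for heart against muscle. Leaving out the 3 arrays of brain control, brain hypoxia and lung hypoxia, or both Con arrays numbered 1, was chosen after seeing the data. The adipose Glucose minus Con count of 1 became 0 with the offset at percentile 40, with no filter, and with the probe set of the lowest mean, and ranged from 0 to 2 with 1 array left out. All differences that turned sign had not passed the test, and the cause was not tested. With the deposited scaling, Tnnc2 was -0.17 for heart against brain and lung and Tnni2 -0.12 for lung minus brain. Without the 3 arrays, Tnnt3 was 0.36 and Tnni2 0.16 for heart and Tnnc2 0.64 for muscle against brain and lung. With the offset at percentile 5, Tnni1 was 0.45 for Glucose minus Con and Tnni2 0.11 for adipose hypoxia, and without both Con arrays numbered 1 Tnni1 was 1.76 for Glucose minus Con.

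With 1 array left out, Tnnc2 ranged from -0.21 to 0.63 and Tnni1 from -0.43 to 0.10 for heart, and Tnnc2 from -0.96 to 0.41 for muscle, against brain and lung. Tnnc2 ranged from -0.29 to 1.08 for heart minus muscle. For lung minus brain, Tnnt3 ranged from -1.14 to 0.57, Tnni2 from -0.32 to 0.70 and Tnnc2 from -1.42 to 0.19. For Glucose minus Con, Tnnt3 ranged from -2.34 to 0.34, Tnni1 from -1.77 to 0.62, Tnni2 from -1.89 to 0.38 and Tnnc2 from -1.13 to 0.34. For adipose hypoxia on average, Tnnt3 ranged from -0.90 to 1.78 and Tnni2 from -1.46 to 0.80, and within Glucose from -0.40 to 4.96 and from -0.92 to 3.61.

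The main adipose fit did not pair arrays by replicate number. Deviations of same-numbered arrays correlated at 0.18 between the Con groups, 0.41 between the Glucose groups and -0.14 to -0.05 between the others. Same-numbered Glucose arrays thus deviated together in part. They also share their title code (s4 for number 1, s2 for number 2), so number and code cannot be told apart there. In Con the code is crossed with the number (Con Hyp 1 has s4, Con NonHyp 1 has s2). With the replicate block the count stayed at 1, with Tnnt1 at -4.54 (limma, adjusted p = 0.009811), and no other troponin call changed.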
